A study of Homo sapiens with 24 samples.

Results

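The comparison described here is that of LUHMES aggregates on day 15 (D15), 7 days after a 24 h exposure to 100 nM rotenone had ended, with vehicle aggregates of the same day. Its members were chosen by the sample titles and are 6 of the 24 arrays of the study, 3 with 100 nM rotenone and 3 with DMSO. LUHMES is a human mesencephalic line that turns into dopaminergic neurons when tetracycline silences its immortalizing transgene, and all groups come from this single line. Cells were differentiated as 3D aggregates on a gyratory shaker in medium with cAMP, GDNF, tetracycline and N2, and were exposed from day 7 to 50 or 100 nM rotenone or to DMSO at the amount of the 100 nM dose. The 50 nM dose was given for 12 h or 24 h, and the 100 nM dose for 24 h. Samples were collected at the end of exposure on day 8 (D8), or were moved to clean plates after wash-out and collected on D15. The labels do not say whether replicates came from separate cultures, so the p values measure only the spread between these samples, which may be technical.

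Rotenone blocks complex I, the entry point of the respiratory chain for electrons from NADH, which lowers ATP production and raises the formation of reactive oxygen species. Dopaminergic neurons are known for their sensitivity to this block, and rotenone is widely used to model features of Parkinson disease in cells and animals. Cells under mitochondrial stress commonly switch on the integrated stress response, in which ATF4 drives genes of amino acid supply and secreted factors such as GDF15. The question of the D15 comparison is which transcripts still differed from vehicle after a week without the compound.

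Neuronal markers matched the label. All 18 pan-neuronal genes listed were well above background on every array of both D15 groups, and their summed linear signal was 482000 to 492000 in DMSO and 467000 to 511000 with 100 nM. Of 22 dopaminergic genes, 17 were measured, while SLC18A2, LMX1A, FOXA1, ALDH1A1 and CALB1 were not. Measured means here that a probe of the gene was well above background on all 3 arrays of at least 1 of the compared groups, which held for 14656 genes. Of the defining markers of other cells, GFAP and GJA1 (astrocytes), SOX2 (progenitors), PECAM1 and TEK (endothelium), COL3A1 and THY1 (fibroblasts) and PDGFRA (oligodendrocyte precursors) were well above background on 0 of the 6 arrays. Other members of these lists were well above background on all 6. They were CLDN5 (endothelium), COL1A2, DCN, LUM and PDGFRB (fibroblasts and mesenchyme), NES, VIM, HES5, PAX6 and FABP7 (progenitors) and MBP, CNP, MOG and OLIG1 (oligodendrocytes). The immune markers LCP1, CD14 and PTPRC were also well above background on all 6. So were all 10 skeletal muscle markers on the array.

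One array stood apart. Replicate 3 of the D15 100 nM group deviated from the fit with a residual SD of 0.30 (log2), while the other 23 arrays lay between 0.12 and 0.19. Results are therefore also given without it. DMSO replicate 1 is also left out in turn, because DMSO is missing from its scan name, which states 12 h on day 15, so that its group rests on its label. Every group had 1 array per slide, and the slide entered as a block unless stated. All values below are log2 signals with the slide averages aligned, and all differences are 100 nM minus DMSO on the log2 scale unless another contrast is named.

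Genes were compared with limma and Benjamini-Hochberg adjustment over all 14656 genes. The strict threshold used here is an adjusted p under 0.05 with more than 1.5-fold difference, and the lenient threshold is an unadjusted p under 0.01 with more than 1.5-fold difference. Between 100 nM and DMSO on D15, 0 genes (0%) passed the strict threshold. At any fold change the number was also 0, and the smallest adjusted p was 0.052. An adjusted p under 0.1 was reached by 12 genes (0.0819%). At an unadjusted p under 0.05, 1436 genes (9.8%) passed, 316 higher (2.16%) and 1120 lower (7.64%). The lenient threshold was passed by 125 genes (0.853%), 14 higher (0.0955%) and 111 lower (0.757%). On D8, at the end of exposure, 756 genes (5.16%) passed it. The D15 arrays of both groups did not overlap for 1848 genes (12.6%), 636 higher (4.34%) and 1212 lower (8.27%).

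The size of the excess of lower genes depended on single arrays, and its direction on the scaling. In 106 of the 111 lower genes, the largest drop was that of replicate 3, in 2 that of replicate 1 and in 3 that of replicate 2. The median difference of the 111 genes was -0.34 on slide 1, -0.38 on slide 2 and -1.55 on slide 3. Each slide difference holds both the 100 nM and the DMSO array of that slide. When replicate 3 of the 100 nM group was left out, 36 genes were past the lenient threshold, 9 higher and 27 lower, of which 27 were among the 125. Without DMSO replicate 3 the number was 55, 14 higher and 41 lower. Without DMSO replicate 1 it was 193, and without replicate 1 or 2 of the 100 nM group it was 474 or 480. Scaling by the 75th percentile of the array in place of quantile normalization gave the opposite split, in which 62 genes were higher and 15 lower, and with the processed signal of the scanner software 68 were higher and 47 lower. Of the genes named below, alternatives were computed for those of the naming rule, and among these ATF4, DDC, DDX17 and ZMAT3, and the D8 genes ADIRF, C11orf96, CAMK2N1, FBXO9 and H1-10-AS1, had the other sign in at least 1 alternative. The lower genes were dim, with a median DMSO signal of 6.17 against 8.22 for all genes, and 73 of the 125 genes (58.4%) were well above background on all 6 arrays, against 92.1% of all genes.

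**Figure D1:**
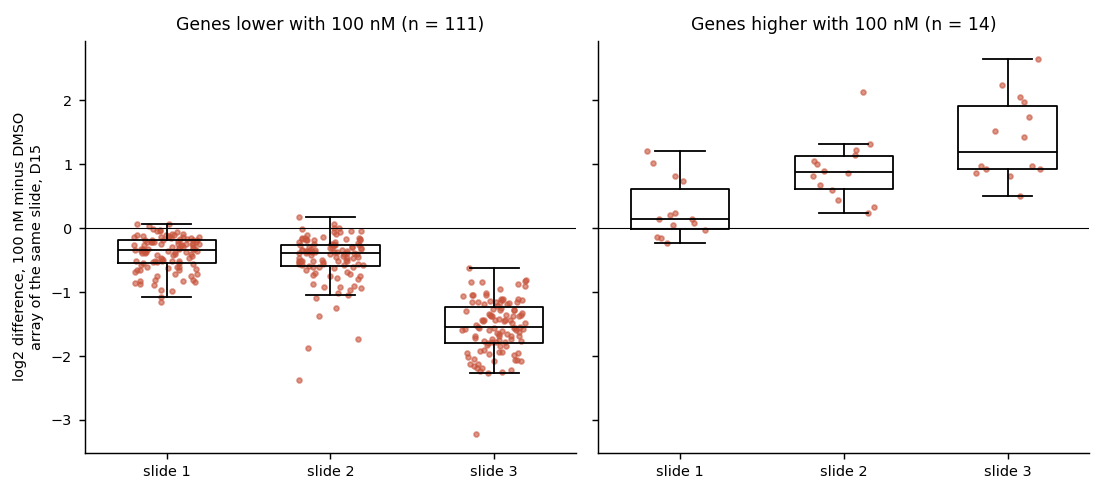
Log2 difference between the 100 nM and the DMSO array of the same slide on D15 (y axis) for the 111 lower and 14 higher genes past the lenient threshold, by slide (x axis). Points are genes, boxes give the quartiles and the median, and whiskers reach the last point within 1.5 times the box. The lower genes sit at a median of -1.55 on slide 3 and at -0.34 and -0.38 on slides 1 and 2. The genes were chosen for this difference.

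The 2 genes with the smallest p were BMPER and LCP1, both lower on all 3 rotenone arrays. BMPER encodes a secreted protein that binds bone morphogenetic proteins and modulates their signaling. Its signal was 6.73, 6.71 and 7.02 in DMSO and 5.86, 6.24 and 5.66 with 100 nM, so that the groups did not overlap. The difference was -0.90 (SE 0.14, limma adjusted p = 0.052), a fold change of 1.87. On D8 BMPER differed from its own DMSO arrays by 0.07 (adjusted p = 0.78), and the change of D15 minus that of D8 was -0.98 (SE 0.19, limma adjusted p = 0.0054). The lower level was thus seen 7 days after exposure and was not detectable at its end. Without replicate 3 of the 100 nM group the D15 difference was -0.75 (limma adjusted p = 0.29). Without DMSO replicate 1 it was -0.96 (limma adjusted p = 0.055).

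LCP1 encodes plastin 2, an actin-bundling protein best known from leukocytes. Its signal was 7.79, 7.82 and 7.88 in DMSO and 7.10, 7.07 and 6.76 with 100 nM on D15. All rotenone arrays lay below all DMSO arrays, with a difference of -0.86 (SE 0.13, limma adjusted p = 0.052). Without replicate 3 the difference was -0.73 (limma adjusted p = 0.38). LCP1 was already lower on D8, by -1.06 (adjusted p = 4.3e-05), and the changes of both days differed by 0.20 (limma adjusted p = 0.59). The mean of LCP1 in DMSO was 6.57 on D8 and 7.83 on D15, and the rotenone arrays were lower on each day. With 50 nM for 24 h the D15 signal was 7.29, 7.20 and 7.30, between that of DMSO and 100 nM. LCP1 had an adjusted p under 0.05 in 7 of 22 alternatives. LCP1 is a member of the list of microglia and immune markers, of which AIF1, CD68, TREM2, CSF1R, CX3CR1 and ITGAM were not measured. The summed signal of the immune markers was 470 to 529 in DMSO and 271 to 408 with 100 nM. This sum includes LCP1 itself, so it is not independent of the LCP1 difference, and its part in the result was not tested.

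CD200 encodes a membrane glycoprotein of neurons that restrains microglia through its receptor. On D15 it was at 6.96, 6.66 and 6.99 in DMSO and at 5.99, 6.10 and 5.0 with 100 nM. The groups did not overlap, and replicate 3 was the lowest array. The difference was -1.17 (SE 0.22, limma adjusted p = 0.095), and both probes of the gene gave it, at -1.18 and -1.16. Without replicate 3 it was -0.77. On D8 CD200 was lower by -0.80 (adjusted p = 0.014), from a DMSO mean of 5.84.

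RETREG1, a receptor for autophagy of the endoplasmic reticulum, and WDFY2, a protein of endosomes, followed the pattern of BMPER. RETREG1 was at 7.73, 7.95 and 8.14 in DMSO and at 7.25, 7.34 and 7.20 with 100 nM, a difference of -0.68 (SE 0.12, limma adjusted p = 0.095). On D8 its difference was 0.17 (adjusted p = 0.37), and the changes of the days differed by -0.85 (limma adjusted p = 0.0069). WDFY2 was at 6.91, 7.11 and 6.96 in DMSO and at 6.36, 6.59 and 6.12 with 100 nM. It differed by -0.64 on D15 and by 0.09 on D8, and the difference between the days was -0.73 (limma adjusted p = 0.017).

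The other genes with an adjusted p under 0.1 were FRMPD2, KLF9, COL9A3, DIXDC1, TSPEAR-AS2, GNRH1 and SKOR1-AS1. KLF9, DIXDC1, COL9A3, TSPEAR-AS2 and GNRH1 lay at a fold change of 1.5 or less and were taken up after their values were seen. KLF9, a transcription factor induced by glucocorticoids and thyroid hormone, was at 7.29, 7.42 and 7.47 in DMSO and at 6.94, 6.93 and 6.76 with 100 nM. Its D15 difference was -0.52 with 100 nM and -0.59 with 50 nM for 24 h (unadjusted p = 1.4e-05), against shared DMSO arrays. COL9A3, a chain of collagen IX, was at 11.63, 11.86 and 11.71 in DMSO and at 11.19, 11.02 and 11.24 with 100 nM. Its difference of -0.58 (SE 0.11) was -0.63 without replicate 3, so that this array did not carry it. FRMPD2, a scaffold protein, was at 5.63, 5.6 and 5.57 in DMSO and at 4.97, 4.68 and 4.44 with 100 nM, where 2 of 3 arrays were well above background.

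Genes with higher signal were fewer. GNRH1, the precursor of gonadotropin-releasing hormone, was at 7.95, 7.92 and 8.10 in DMSO and at 8.45, 8.43 and 8.74 with 100 nM. Its difference was 0.55 (SE 0.10, limma adjusted p = 0.095) on D15 and -0.18 on D8, and the difference between the days was 0.74 (limma adjusted p = 0.0053). SKOR1-AS1, an antisense RNA, was well above background on 0 DMSO arrays and on all 3 rotenone arrays. It was at least 2.28-fold higher with 100 nM, measured against the lowest signal well above background on each array. SKOR1-AS1 passed the filter through the rotenone group alone. Its limma adjusted p of 0.095 rests on DMSO values not well above background and is not evidence of its own. NMRK2, a kinase that makes the NAD precursor NMN from nicotinamide riboside and is known from muscle, was at 4.78, 4.43 and 4.81 in DMSO and at 5.80, 5.32 and 5.62 with 100 nM. The arrays did not overlap, the difference was 0.91 (SE 0.26, limma adjusted p = 0.35), and 1 of 3 DMSO arrays was well above background. NMRK2 thus also passed the filter through the rotenone group alone. Its separation and p value rest in part on DMSO values not well above background and are not evidence of their own. Over the alternatives its difference ranged from 0.37 to 2.04.

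**Figure D2:**
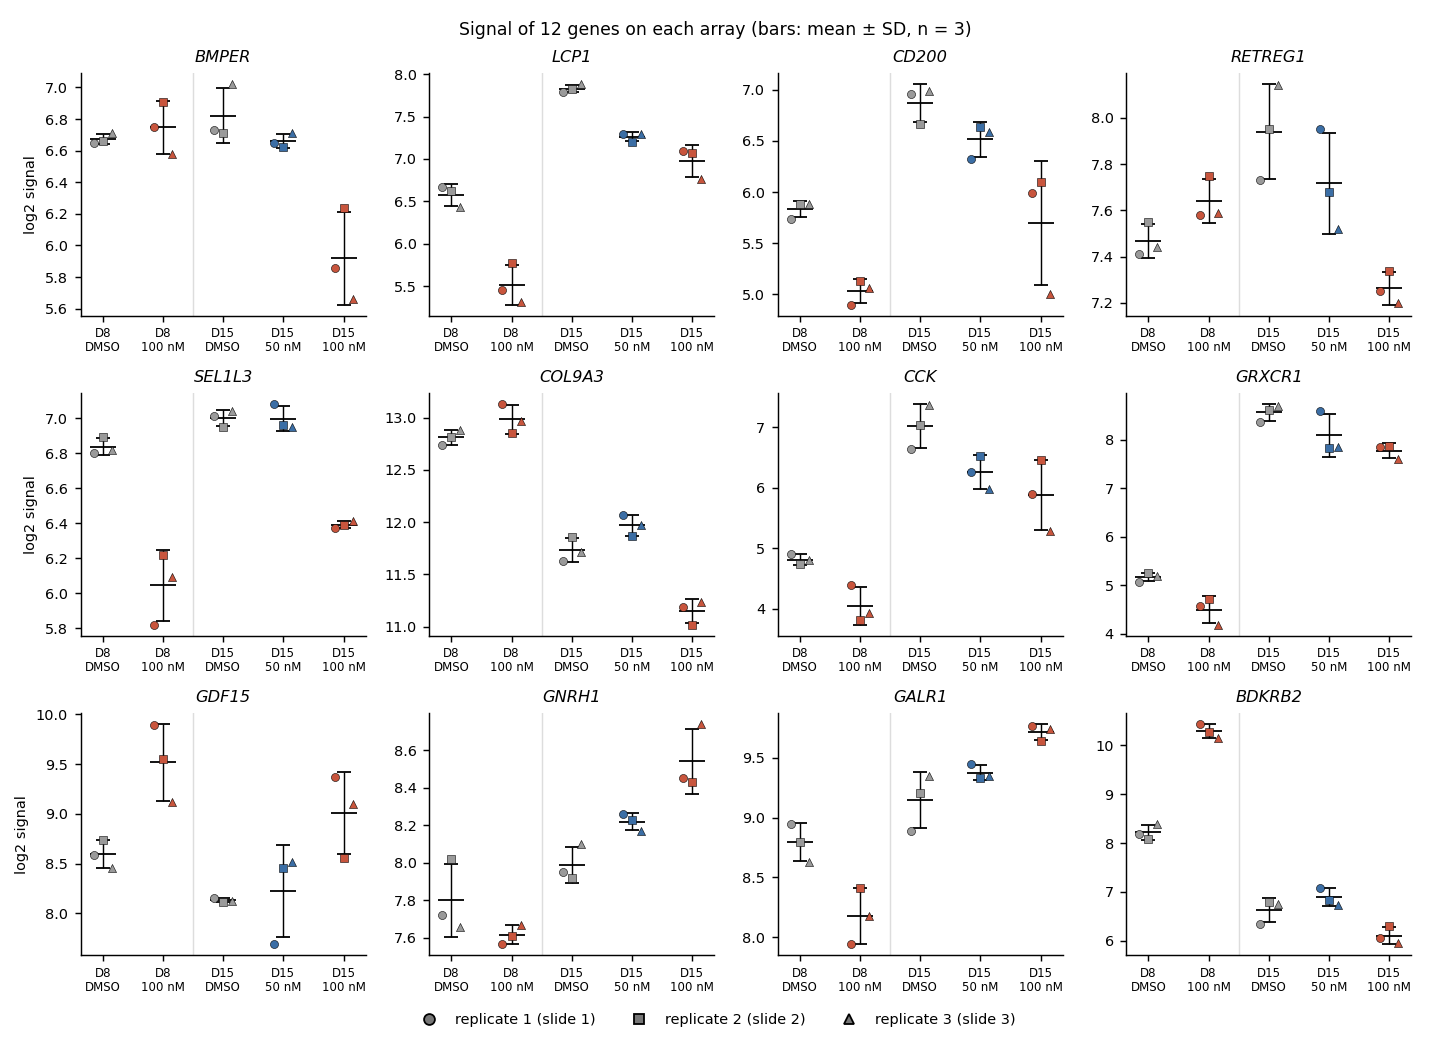
Log2 signal (y axis) of 12 genes on each array of the D8 DMSO, D8 100 nM, D15 DMSO, D15 50 nM (24 h) and D15 100 nM groups (x axis), with slide averages aligned. Symbols give the replicate, and bars the mean ± SD of 3 arrays. On D15 the 100 nM arrays lie below the DMSO arrays for BMPER, LCP1, CD200, RETREG1, SEL1L3, COL9A3, CCK, GRXCR1 and BDKRB2 and above them for GDF15, GNRH1 and GALR1. The axes do not start at 0 and differ between genes.

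Genes called on D8 mostly differed less from DMSO on D15. On D8, 755 of the genes (5.15%) passed the strict threshold in limma, 324 higher (2.21%) and 431 lower (2.94%). The genes higher on D8 had a median difference of 0.73 on D8 and 0.01 on D15. The genes lower on D8 had medians of -0.74 and -0.06, beside -0.03 for all genes on D15. The change differed between the days at an adjusted p under 0.05 for 455 of the 755 genes (60.3%). The share over all genes was 7.14%, but the 755 were chosen by their D8 difference, which is part of this test, so a larger share follows from the choice. With more than 1.5-fold between the changes, 605 of all genes (4.13%) passed. For 702 of the 755 genes called on D8, the 95% interval of the D15 difference excluded the D8 estimate. That count takes the D8 estimate as exact, for genes chosen by it, so it is not a test of the difference between the days. D8 and D15 have their own DMSO arrays but share the slides.

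Of the D8 genes with the smallest p, TXNIP, which restrains thioredoxin and glucose uptake, fell by 2.55 on the log2 scale on D8. On D15 it was at 11.95, 12.43 and 12.16 in DMSO and at 12.03, 12.01 and 12.05 with 100 nM. The groups overlapped, with a difference of -0.15 (SE 0.13). Its relative ARRDC4, another glucose-responsive arrestin, fell by 2.12 on D8 and differed by -0.09 on D15. FABP3, a carrier of fatty acids, rose by 2.33 on D8 and was at 7.18, 7.13 and 7.48 in DMSO and 7.40, 7.39 and 7.42 with 100 nM on D15. DDX17, an RNA helicase, fell by 1.32 on D8 and differed by 0.13 on D15, and its D15 rotenone arrays lay just above the DMSO arrays, while its brightest probe alone gave -0.03. BDKRB2, the bradykinin B2 receptor, rose by 2.07 on D8 (adjusted p = 4e-08) and was on the other side on D15, at 6.34, 6.79 and 6.76 in DMSO and 6.05, 6.30 and 5.96 with 100 nM. The D15 difference of BDKRB2 was -0.53 (SE 0.13, limma adjusted p = 0.22), and the difference between the days was -2.6 (limma adjusted p = 1.1e-06).

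Of the 755 genes, 13 passed the lenient threshold in the same direction on D15, 1 higher and 12 lower. A further 4, higher on D8, were lower on D15. Of all genes 0.853% passed it on D15. With replicate 3 of the 100 nM group left out, 10 of the 755 genes passed on D15 in either direction, among them LCP1, CD200, CCK, FRMPD2, GRXCR1, SEL1L3, ECM2 and GDF15.

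GDF15, a cytokine secreted by stressed cells, was the 1 gene higher past the strict threshold on D8 and the lenient threshold on D15. On D15 it was at 8.16, 8.12 and 8.13 in DMSO and at 9.37, 8.56 and 9.10 with 100 nM. All rotenone arrays lay above the narrow DMSO range, with a difference of 0.87 (SE 0.24, limma adjusted p = 0.31). It was 0.82 without replicate 3 and 0.89 without DMSO replicate 1. The D8 difference was 0.92 (adjusted p = 0.012), and the changes differed by -0.05 (limma adjusted p = 0.96). With 50 nM for 24 h the D15 arrays of GDF15 spread from 7.69 to 8.52, on both sides of DMSO. With 50 nM for 12 h they were at 8.84, 8.46 and 8.72, above all DMSO arrays. That difference from DMSO was 0.54 (limma unadjusted p = 0.039).

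CCK, the precursor of cholecystokinin, was at 6.64, 7.04 and 7.37 in DMSO and at 5.89, 6.45 and 5.29 with 100 nM on D15. The difference of -1.14 (SE 0.26, limma adjusted p = 0.16) was -0.80 without replicate 3 and -1.35 without DMSO replicate 1. Only 1 of 3 arrays in each D8 group had CCK well above background, so that its place among the genes of both days rests on a D8 difference (-0.76) between dim signals. The 50 nM arrays for 24 h were at 6.26, 6.53 and 5.97, below all DMSO arrays and overlapping with 100 nM.

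SEL1L3, a membrane protein, had replicates close to each other. It was at 7.01, 6.95 and 7.04 in DMSO and at 6.37, 6.39 and 6.41 with 100 nM, a difference of -0.61 (SE 0.13, limma adjusted p = 0.15). On D8 SEL1L3 was lower by -0.79, and with 50 nM for 24 h on D15 its difference from DMSO was 0.00. GRXCR1, a protein of hair cell stereocilia, was at 8.37, 8.62 and 8.70 in DMSO and at 7.85, 7.88 and 7.60 with 100 nM. Its difference was -0.79 (SE 0.20, limma adjusted p = 0.25). ECM2, an extracellular matrix protein, was well above background on all 3 DMSO arrays and 0 rotenone arrays, and was at least 2.31-fold lower with 100 nM. PRMT8, a neuronal arginine methyltransferase, HNRNPM, a splicing factor, and KCNK10, a background potassium channel, were also lower on both days. Their D15 differences were -0.74, -0.65 and -0.63, and their D8 differences -0.96, -0.91 and -1.09. On D15 slide 3 gave the largest drop for each. The slide differences were -0.26, -0.34 and -1.63 for PRMT8, -0.83, -0.02 and -1.10 for HNRNPM and -0.18, -0.33 and -1.38 for KCNK10, and none of these 3 genes passed the lenient threshold without replicate 3. The genes on opposite sides on the days were CILP2, EGFL6, KCNIP4 and RAB37. Slide 3 gave the largest D15 drop for each of them too. The slide differences were -0.33, -0.49 and -1.78 for KCNIP4 and -0.18, -0.26 and -1.43 for RAB37. For CILP2 they were -0.25, -0.62 and -1.16, and for EGFL6 -0.40, -0.88 and -1.57. Of these genes EGFL6 alone passed the lenient threshold without replicate 3, at -0.67, and KCNIP4 was at -0.43. EGFL6, a secreted matrix protein, was higher by 1.25 on D8 and lower by -0.95 on D15, where 2 of 3 rotenone arrays were well above background, and KCNIP4, a subunit of A-type potassium channels, by 0.76 and -0.87.

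**Figure D3:**
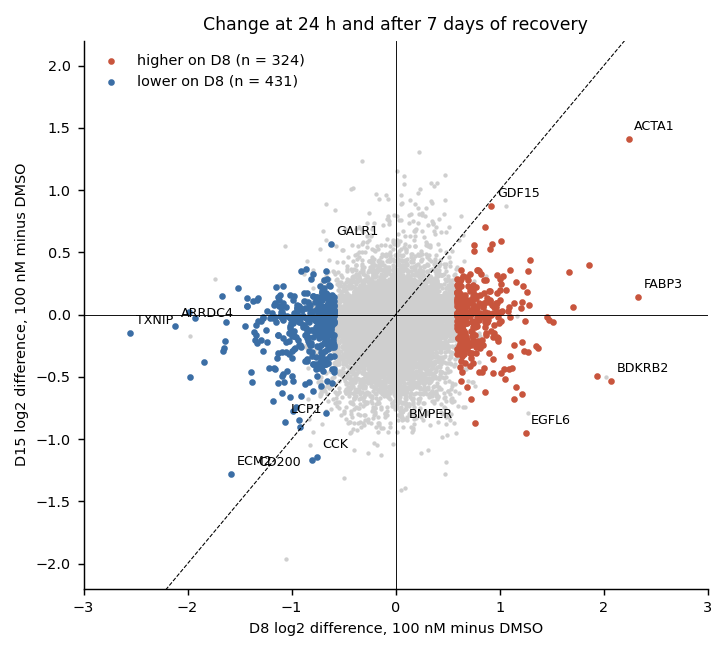
Log2 difference of 100 nM against DMSO on D8 (x axis) and D15 (y axis) for 14656 genes. Coloured points are the 324 genes higher and 431 lower on D8 at the strict threshold, grey points the others, and the dashed line marks equal differences. The coloured genes spread around 0 on D15, with medians of 0.01 and -0.06, and GDF15 and LCP1 lie near the dashed line.

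Genes of the target of rotenone were close to DMSO on D15. The 37 complex I subunits had a median difference of -0.01, between -0.29 and 0.40, beside -0.03 for all genes, and 2 of 37 were lower at an unadjusted p under 0.05, beside 7.64% of all genes. These were NDUFC2 and NDUFA12, both accessory subunits. NDUFC2 was at 11.10, 11.14 and 11.20 in DMSO and at 10.76, 10.94 and 10.87 with 100 nM, a difference of -0.29 (SE 0.071, limma adjusted p = 0.22). Its 2 probes gave -0.47 and -0.11, and those of NDUFA12 gave -0.47 and 0.00. Of 38 measured genes of complexes II to V, 1 was lower at an unadjusted p under 0.05 (SDHD, -0.25) and the median was -0.02. With 75th percentile scaling the medians were -0.07 for complex I and -0.08 for complexes II to V, beside 0 for all genes. In that scaling 6 of 37 and 2 of 38 genes had a positive difference, in place of 17 and 15. Glycolysis genes had a median of 0.03 over 23 genes, with SLC2A1 (glucose uptake, -0.26) and SLC16A3 (lactate export, -0.46) lower at an unadjusted p under 0.05.

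The stress pathways gave single genes at an unadjusted p under 0.05, a threshold that 2.16% of all genes passed on the higher and 7.64% on the lower side. Of 27 measured genes of the integrated stress response, GDF15 alone passed an unadjusted p under 0.05, while the median was 0.01. ATF4, its transcription factor, was at 15.60, 15.75 and 15.67 in DMSO and at 15.76, 15.73 and 15.68 with 100 nM, and its difference of 0.05 was -0.01 with 75th percentile scaling. Among 17 NRF2 targets the median was 0.04, with PRDX1 (peroxide removal) higher by 0.22 at an unadjusted p of 0.021. The 20 cholesterol synthesis genes had a median of 0.44 on D8, where 3 were called higher, and of 0.02 on D15, where 0 passed an unadjusted p under 0.05. Of 23 apoptosis and p53 genes 1 was higher and 2 were lower at an unadjusted p under 0.05, beside these shares of all genes. PMAIP1, which encodes NOXA, was higher by 0.48, and ZMAT3 and BCL2 were lower by -0.40 and -0.35. ZMAT3 was at 0.08 with 75th percentile scaling and at -0.14 without replicate 3.

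The neuronal lists also had medians close to that of all genes. The 18 pan-neuronal genes had a median difference of -0.03, from -0.40 to 0.12, and 0 passed an unadjusted p under 0.05. With 75th percentile scaling the pan-neuronal median was -0.1, beside 0 for all genes. NEFM, a neurofilament, was at 16.20, 16.17 and 16.25 in DMSO and at 16.25, 16.32 and 16.35 with 100 nM. The 17 dopaminergic genes had a median of -0.03. SLC10A4 (a vesicle protein, -0.18) and DDC (dopamine synthesis, -0.51) were lower at an unadjusted p under 0.05, beside 7.64% of all genes. DDC rested on replicate 3, whose signal of 3.91 stood against 4.97 and 5.02 on the other rotenone arrays, and its difference was 0.19 with the filter of the methods. The dopamine transporter SLC6A3 was at 6.03, 6.11 and 6.34 in DMSO and at 5.85, 5.87 and 5.87 with 100 nM, with a difference of -0.30 (SE 0.27). Of 25 synaptic vesicle genes, 1 was lower at that threshold, beside the same 7.64%. This was SYN2 (synapsin 2), lower by -0.39, and by -0.25 without replicate 3.

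Of 20 measured neuropeptide genes CCK, GAL and NMU were lower at an unadjusted p under 0.05, beside 7.64% of all genes. Of 27 measured receptors 1 was higher and 1 lower, beside 2.16% and 7.64%, and the median of -0.12 was 0.11 with 75th percentile scaling. NMU, neuromedin U, was at 6.49, 7.08 and 7.22 in DMSO and at 6.44, 6.38 and 5.56 with 100 nM, a difference of -0.81 (SE 0.26) that was -0.48 without replicate 3. GAL, galanin, was higher by 1.04 on D8 and lower by -0.44 on D15, with overlapping arrays. Its receptor GALR1 was on the other side. GALR1 was at 8.89, 9.21 and 9.35 in DMSO and at 9.77, 9.64 and 9.74 with 100 nM on D15, a difference of 0.57 (SE 0.13, limma adjusted p = 0.16), after -0.62 on D8. The changes of GALR1 differed between the days by 1.18 (limma adjusted p = 9e-04). Of 36 axon guidance genes 2 were higher and 4 lower at an unadjusted p under 0.05, beside 2.16% and 7.64% of all genes, among them EPHA5 (an ephrin receptor, 0.31) and SEMA3C (a semaphorin, -0.91). SEMA3C was at 5.0 on replicate 3, against 6.23 and 6.62 on the other rotenone arrays, and its difference was -0.36 without that array.

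The remaining lists held few genes at an unadjusted p under 0.05, which 2.16% of all genes passed on the higher and 7.64% on the lower side. Of 22 cell cycle genes CDK2 was higher by 0.49 and AURKA, a mitotic kinase, lower by -0.65, and without replicate 3 their differences were 0.32 and -0.18. Of 22 actin and SRF genes, ACTA1 was higher and LCP1, ACTG1 (-0.28) and SRF itself (-0.49) were lower. The mitochondrial chaperones and proteases had a median of 0.04 over 14 genes, with CLPX, a subunit of the matrix protease ClpXP, higher by 0.16. Of 20 genes of mitochondrial dynamics and biogenesis 0 passed, and of 15 Parkinson disease genes CHCHD2 was lower by -0.27. ARC and ARRDC3 were lower by -0.53 and -0.54 among 14 immediate early and glucose sensing genes, and by -0.32 and -0.26 without replicate 3. Of the genes the study followed by PCR, 5 were measured here and 0 passed an unadjusted p under 0.05. Of 8 measured genes that the study named for both days, 3 were higher and 5 lower at an unadjusted p under 0.05, and since that list was chosen on these samples it is not independent evidence.

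**Figure D4:**
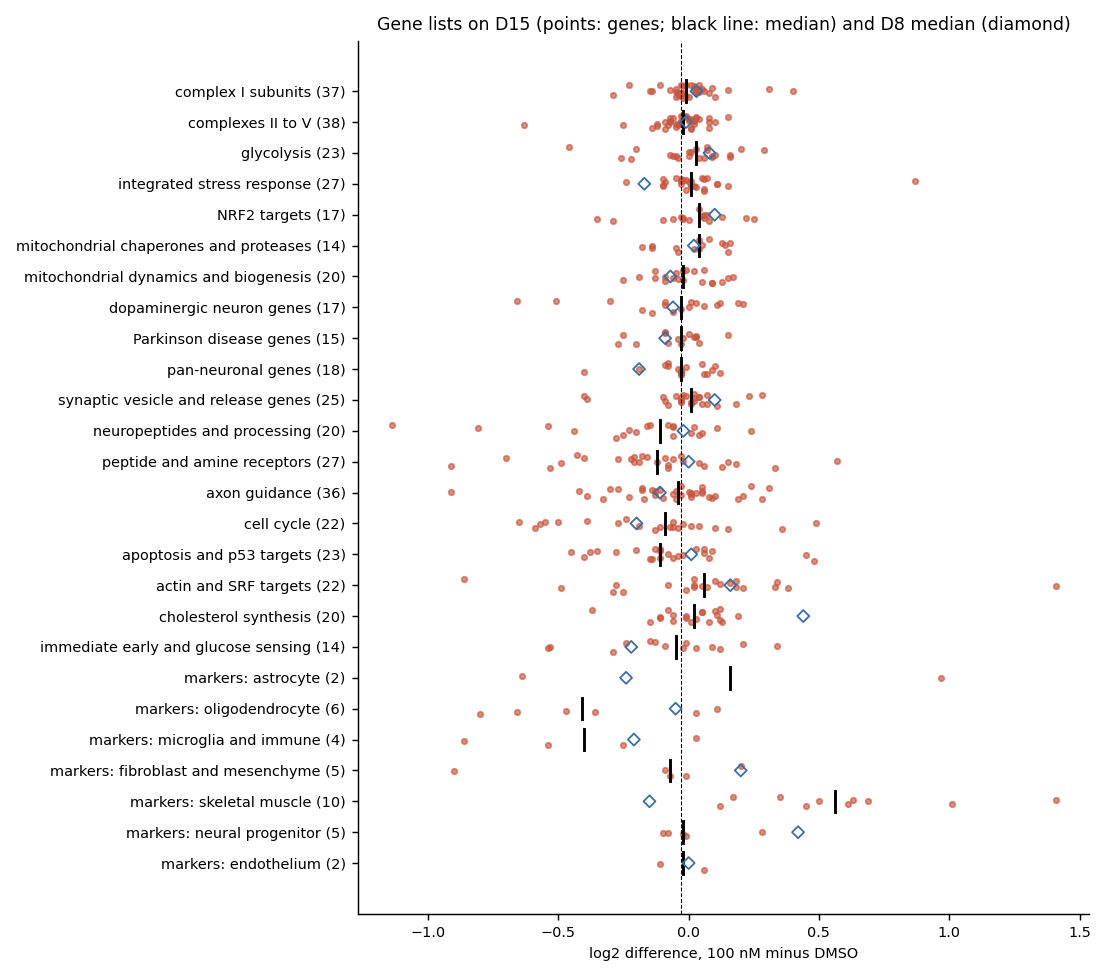
Log2 difference of 100 nM against DMSO on D15 (x axis) for the measured members of each gene list (y axis, with the number of genes). Points are genes, black lines the list medians on D15, diamonds the list medians on D8 and the dashed line the D15 median of all genes, -0.03. The skeletal muscle markers lie to the right with a median of 0.56, while complex I, the integrated stress response, NRF2 targets and pan-neuronal genes have medians within 0.04 of 0.

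The skeletal muscle list had the highest median of the lists. All 10 measured markers had a positive difference, with a median of 0.56 and a range from 0.12 to 1.41, and 2 of 10 were higher at an unadjusted p under 0.05, beside 2.16% of all genes. Their direction was the same in 20 of 22 alternatives for all 10 genes. Without replicate 1 of the 100 nM group or without DMSO replicate 2 the median was 0.28, with 9 of 10 positive. ACTA1, skeletal alpha-actin, was at 11.10, 10.44 and 11.10 in DMSO and at 12.93, 11.75 and 12.18 with 100 nM, a difference of 1.41 (SE 0.53, limma adjusted p = 0.43). On D8 ACTA1 rose by 2.24 (adjusted p = 0.0068). With 50 nM for 24 h its D15 arrays spread from 9.12 to 11.65. TNNI2, fast troponin I, was at 7.78, 7.16 and 7.45 in DMSO and at 8.96, 7.95 and 8.53 with 100 nM, a difference of 1.01 (SE 0.47), and differed by -0.43 on D8. MYOD1, a myogenic transcription factor, was at 8.01, 7.43 and 8.05 and at 8.95, 8.08 and 8.34.

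Muscle transcripts were thus well above background in vehicle aggregates too. MYH3, the embryonic myosin heavy chain, reached 13.51, 12.68 and 13.47 in DMSO. The summed linear signal of the muscle markers was 17800 to 30400 in DMSO and 28300 to 51800 with 100 nM, and the ranges overlapped. In bulk RNA, more cells of a kind and more RNA per cell cannot be told apart.

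**Figure D5:**
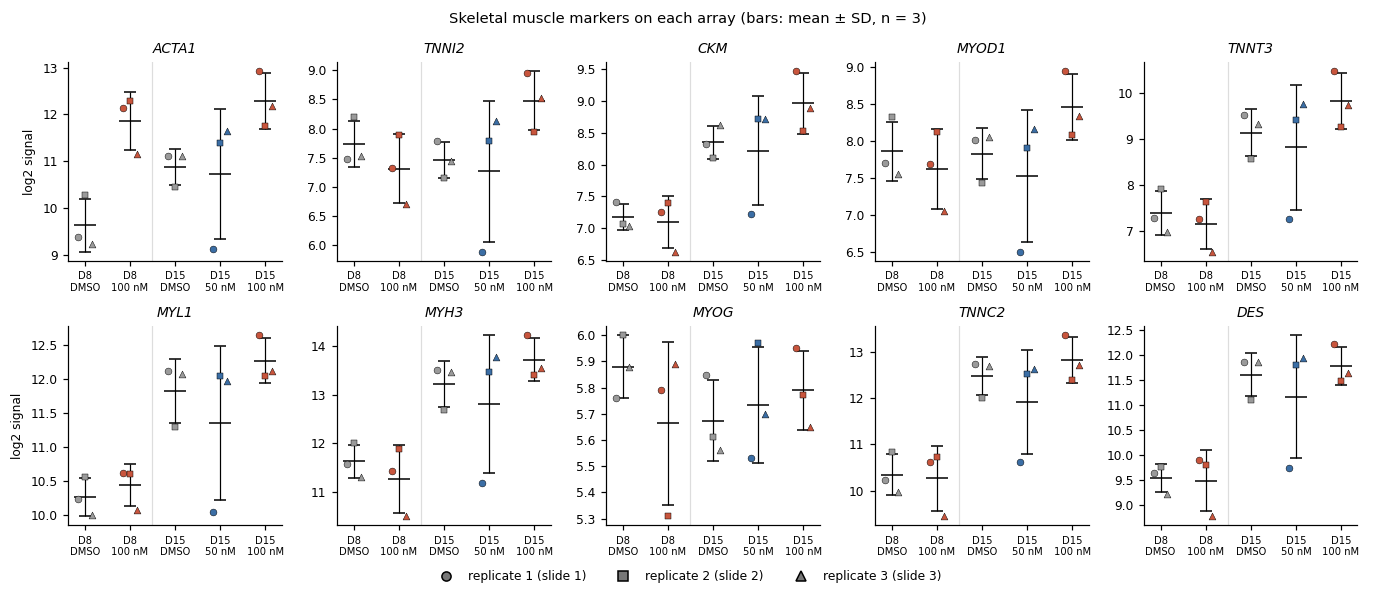
Log2 signal (y axis) of the 10 measured skeletal muscle markers on each array of 5 groups (x axis), with slide averages aligned. Symbols give the replicate and bars the mean ± SD of 3 arrays. On D15 the mean of the 100 nM group is above that of DMSO for all 10 genes, and the arrays of the groups are separate for ACTA1, TNNI2 and MYOD1. The axes do not start at 0 and differ between genes.

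Oligodendrocyte lineage markers were lower in part. Of 6 measured markers, OLIG2 and MOG passed the lenient threshold on the lower side, beside 0.757% of all genes, and the median was -0.41, which was -0.1 with 75th percentile scaling. OLIG2, a lineage transcription factor also active in neural progenitors, was at 5.08, 5.42 and 5.64 in DMSO and at 4.89, 5.05 and 4.22 with 100 nM, where 2 of 3 arrays were well above background. MOG, a myelin surface protein, was at 7.11, 7.21 and 7.37 and at 7.17, 6.52 and 5.59, so that its arrays overlapped. Without replicate 3 the differences of OLIG2 and MOG were -0.37 and -0.33, after -0.66 and -0.8 with all arrays. MBP and CNP, also myelin genes, differed by 0.11 and 0.03.

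The direct comparison of the doses after recovery did pass adjustment for a few genes. Between 100 nM and 50 nM for 24 h on D15, 9 genes (0.0614%) passed the strict threshold in limma, all lower with 100 nM. The 9 were BDKRB2, COL9A3, KCNH6, KCNQ1, KLHL35, OLIG1, OLIG2, RTP4 and TSPEAR-AS2, named after their values were seen. Without replicate 3 of the 100 nM group 4 genes were called, and of the 9 COL9A3, KLHL35 and OLIG2 kept an adjusted p under 0.05. The differences of the others remained close for KCNH6 (-0.68), OLIG1 (-1.06), RTP4 (-1.33), TSPEAR-AS2 (-0.67) and BDKRB2 (-0.70), while KCNQ1 was at -1.01 after -1.37 with all arrays. COL9A3 was at 12.07, 11.87 and 11.97 with 50 nM, against 11.19, 11.02 and 11.24 with 100 nM, and differed by -0.82 (limma adjusted p = 0.017). OLIG1, the partner of OLIG2 in the lineage, was at 8.47, 8.25 and 7.79 with 50 nM and at 7.00, 7.21 and 6.99 with 100 nM, a difference of -1.10 (limma adjusted p = 0.025). OLIG2 was at 6.05, 5.91 and 5.79 with 50 nM and differed by -1.20 (limma adjusted p = 0.022).

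Several of these dose differences had 50 nM on the far side of DMSO. OLIG1 was at 7.13, 7.36 and 7.79 in DMSO, between the doses, and so was COL9A3. KLHL35 was at 10.02, 10.26 and 10.17 with 50 nM and at 9.47, 9.13 and 9.49 with 100 nM (difference -0.78, limma adjusted p = 0.017). KCNQ1, a voltage-gated potassium channel, was at 5.33, 5.56 and 5.62 with 50 nM and at 4.71, 4.19 and 3.51 with 100 nM, where 1 of 3 arrays was well above background. KCNH6, another potassium channel, differed between the doses by -0.68 (limma adjusted p = 0.025). For BMPER the dose difference was -0.74 (limma adjusted p = 0.051) and for LCP1 -0.29 (limma adjusted p = 0.62). Against the same DMSO arrays, 18 genes passed the lenient threshold with 50 nM for 24 h (0.123%) and 17 with 50 nM for 12 h (0.116%), and 0 passed an adjusted p under 0.05 with either (at an unadjusted p under 0.05, 657 or 4.48% and 339 or 2.31%).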

How the data were processed

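The members and the gene lists were chosen with earlier results of these data known. The authors deposited, per the file headers, the median intensity of each spot of 24 single-color Agilent arrays as written by Feature Extraction (11.5.1.1 for slides 1 and 3, 12.0.0.7 for slide 2), and their own normalized log2 table, which served as an alternative and gave values for 14152 of the genes. The submitters' processing notes name R 3.5. No saturated spots were found. RNA of each sample was labeled with 1 dye, and the labels mark slide 1 as a repeated slide in need of batch correction.

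Intensities were background-corrected with normexp (offset 0) and quantile normalized over 24 arrays with limma 3.58.1 (R 4.3.3, data.table version 1.17.8, statmod 1.5.0). Outlier spots and controls were left out, replicate spots and then the probes of each gene were averaged, and probes were named by accession through RefSeq (30275 of 50599). Effects were taken from 25474 probes well above background on all 3 arrays of 1 of the 2 groups, 19699 of them named, giving 14656 genes. A value was missing for 14 of these genes' array values on the 6 arrays, and the fit used the remaining arrays of the gene. 1 fit of all 24 arrays with 8 groups and the slide as a block left 14 residual degrees of freedom, to which the prior added 2.99. Tests were two-sided, and the fit was tested on simulated data. For display, slide means were aligned.

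The replicate number is the slide. Deviations from the group means correlated in all 84 pairs of arrays of the same number (lowest 0.196, median 0.607, against a median of -0.41 for different numbers), so the numbers pair the arrays. Place on the slide and group cannot be told apart, since a group had the same place on all slides. Between 50.9% and 82.4% of the spots of an array were well above background. Precision is limited by having 3 arrays per group. Named genes were the 12 higher and 12 lower with the smallest p at a fold change over 1.5 without overlap, genes the study followed, the 2 of each list and 12 D8 genes with the smallest p, and those called in an alternative. Of these, the text gives those whose role is clear, and some items are not reported here. The alternatives changed the batch handling, filter, offset, scaling, probe choice, arrays in the fit and array weights, and left out each of the 6 arrays in turn. The alternative without slide 3 was added after the data were seen.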

Additional observations from a re-analysis of the deposited data

Results flagged for a closer look

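For 23 of the named genes the change with 100 nM differed between D15 and D8 in the limma interaction test. The criteria were an adjusted p under 0.05 and a difference of more than 1.5-fold. Genes named only for a call in an alternative were left out of this count, among them GNRH1 and KCNIP4, which also met both criteria. Of all genes 605 (4.13%) met them, and 12 named genes were chosen for their D8 change. Values are the D15 change minus the D8 change on the log2 scale. Genes that had fallen on D8 gave positive values, with 2.41 for TXNIP, 2.03 for ARRDC4, 1.90 for H1-10-AS1, 1.45 for DDX17, 1.25 for CDH18 and 1.1 for FBXO9. Genes that had risen on D8 gave negative values, with -2.6 for BDKRB2, -2.19 for FABP3, -1.64 for ADIRF, -1.51 for C11orf96, -1.0 for CAMK2N1 and -0.90 for PLEKHB1. ARC, an immediate early gene, was at -1.16 and SLC16A3 at -0.90, both higher on D8 and lower on D15.

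Genes not called on D8 and lower on D15 were BMPER at -0.98, RETREG1 at -0.85, WDFY2 at -0.73, KCNQ1 at -1.35 and ADGRG4 at -1.67, the last of which was well above background on 0 DMSO arrays of D8. Not called on D8 and higher on D15 were SKOR1-AS1 at 1.56 and RBP5 at 1.17. RBP5 was well above background on 2 of 3 D15 DMSO arrays and 1 of 3 D8 rotenone arrays. It passed the filter through the D15 rotenone group alone, and its value rests in part on signals below that level. With replicate 3 of that group left out, the D15 difference of RBP5 fell from 0.69 to 0.32. SKOR1-AS1 was well above background on 0 D15 DMSO arrays and 0 D8 rotenone arrays and passed the filter through the D15 rotenone group alone, so its value has no exact size. GALR1 at 1.18 and EPHA5 at 0.72 were lower on D8 and higher on D15.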

How the results depend on the processing

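The number of arrays limits the precision, and 73 of the 125 genes were well above background on all 6 arrays. The values below are the genes past each threshold, out of 22 alternatives. At the strict threshold the D15 comparison gave 0 genes, and 6 with ComBat in place of the block, 1 with a random block, 2 among genes well above background on all 6 arrays, 4 with an offset of 50, 1 with 75th percentile scaling and 1 on slides 2 and 3. Leaving out single arrays gave 0 to 37. At the lenient threshold the 125 genes became 38 without block or correction, 75 when well above background on all 6 arrays, 11 with an offset of 50, 77 with 75th percentile scaling, 66 with the D15 arrays alone, 33 with the 6 arrays alone, 215 on slides 2 and 3, 32 on slides 1 and 2 and 55 with array weights. Leaving out single arrays gave 36 to 480. At an unadjusted p under 0.05 and any fold change the 1436 genes became 448 without block or correction, 554 with the 6 arrays alone and 479 on slides 1 and 2, and 606 to 2431 without single arrays.

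The replicate block mattered for the pairing by slide. Without the replicate block and with no batch correction, 5 of the D8 genes passed on D15 in place of 13, the day interaction gave 154 genes in place of 605, the dose comparison 0 in place of 9, and the lists held 7 members past the threshold in place of 11. Without the block and with ComBat these numbers were 13, 563, 18 and 12. The D8 genes that passed on D15 were 4 with an offset of 50, 4 on slides 1 and 2, and 10 to 37 without single arrays. The interaction gave 269 genes on slides 2 and 3 and 179 on slides 1 and 2. The dose comparison gave 4 with the filter of the methods, 4 without a filter, 14 among genes well above background on all 6 arrays, 0 with the D15 arrays alone, 1 on slides 2 and 3, 0 on slides 1 and 2, and 4 to 20 without single arrays. List members past the threshold were 6 with an offset of 50, 7 with 75th percentile scaling, 6 with the D15 arrays alone, 6 on slides 1 and 2, and 6 to 20 without single arrays.

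Among single genes with an unadjusted p under 0.05 in either fit, 3 turned. DDC, at -0.51, was at 0.19 with the filter of the methods, 0.19 without a filter, 0.15 in the authors' values and 0.02 on slides 1 and 2. ZMAT3, at -0.40, was at 0.08 with 75th percentile scaling, and NDUFA12, at -0.23, was at 0 with its brightest probe. The causes were not tested. The alternative on slides 1 and 2 was chosen after seeing the data.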

Other observations

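Further genes outside the lists were higher on D15. PCP4, a small calmodulin-binding protein of neurons, was at 11.11, 11.03 and 11.21 in DMSO and at 11.45, 11.49 and 11.51 with 100 nM, a difference of 0.36 (SE 0.091, limma adjusted p = 0.22), after 0.78 on D8. GPX3, a secreted glutathione peroxidase, was at 6.69, 6.57 and 6.65 and at 6.93, 6.95 and 7.15, with 0.37 on D15 and 0.10 on D8. CXCL12, a chemokine of neuronal migration, was at 5.50, 5.46 and 5.33 and at 5.84, 5.82 and 5.6, higher by 0.32 on D15 and by 0.97 on D8 (adjusted p = 6.2e-06). S100A4, a calcium-binding protein, was at 6.80, 7.22 and 7.24 and at 7.35, 7.86 and 7.73, a difference of 0.56 (SE 0.15). The rotenone arrays lay above the DMSO arrays for each of these 4 genes, which were named after their values were seen, and for 4.34% of all genes.

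RBM26, an RNA-binding protein, had the lowest of the differences among the 125 genes, at -1.96 (SE 0.42, limma adjusted p = 0.14). It was at 7.95, 8.38 and 8.44 in DMSO and at 7.65, 6.01 and 5.22 with 100 nM, so that the rotenone arrays spread over more than the distance from DMSO to the nearest of them. On D8 its difference was -1.05 (adjusted p = 0.088).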
